A study of Saccharomyces cerevisiae BY4741 with 40 samples.

Results

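The TSS clusters (TSSCs) described here start inside an annotated ORF, on the coding strand, in its central part. A TSSC is a group of neighbouring transcription start sites (TSSs). The B category of the study holds the TSSCs in the sense direction inside an ORF or the 3′ untranslated region after it. For each B-TSSC, f is the distance of its midpoint from the start of its own ORF, divided by the length of the ORF. B-TSSCs with f from 1/3 to under 2/3 numbered 770, out of 2978 B-TSSCs and 17812 TSSCs in all. The 5′ part of ORFs, with f under 1/3, held 940 B-TSSCs and the 3′ part 780, while 220 lay after the ORF, 1 before it, and 267 had no ORF bounds in the table. These 770 mid-ORF TSSCs lay on 687 ORFs, of which 609 held 1, 73 held 2 and 5 held 3.

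The 5′-ends of capped poly(A)+ RNA were sequenced from budding yeast in mid-exponential growth on rich medium (YPD), to ask which transcripts are removed by RNA decay in the nucleus and in the cytoplasm. All strains were BY4741 derivatives that carry *can1∆*. The *RRP6* experiment had 3 libraries each of wild-type (*can1∆* alone), *upf1∆*::KANMX6, *rrp6∆*::hphMX6 and *upf1∆*::KANMX6 *rrp6∆*::HPHMX6 cells. The *SET2* experiment had 3 libraries each of wild-type, *upf1∆*::KANMX6, *set2∆*::KANMX6 and *set2∆*::KANMX6 *upf1∆*::HIS3MX6 cells. Wild-type and *upf1∆* were thus sequenced in both experiments, and the strain references in the labels show that the *upf1∆* strain was the same one in all 6 libraries. The study's strain list gives HIS3MX6 as the marker of this *upf1∆* strain, where the labels give KANMX6.

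A transcript that starts inside an ORF lacks the start codon of the gene, so a ribosome that scans from its 5′-end meets whichever ATG comes first. Where that ATG is out of frame with the ORF, translation usually ends early and leaves a long untranslated tail, a feature that nonsense-mediated mRNA decay (NMD) recognizes in the cytoplasm. NMD does not operate in cells that lack the helicase Upf1. Rrp6 is a nuclease of the nuclear exosome, which degrades short noncoding transcripts soon after they are made. Set2 methylates histone H3 on lysine 36 behind elongating RNA polymerase II, and the histone deacetylation that follows keeps start sites inside genes closed.

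The authors combined the 3 libraries of a genotype into 1 normalized whole number for every TSSC, so these values carry no spread between libraries, and no test between genotypes was made from them. Values of the *RRP6* experiment summed over all TSSCs to between 4276051 and 4985459 per genotype, and those of the *SET2* experiment to between 3914205 and 4590115. The mRNA-TSSC of *RRP6* had 86 in wild-type, 88 without Upf1, 2 without Rrp6 and 7 without both. That of *SET2* had 40 in wild-type, 26 in *upf1∆*, 6 in *set2∆* and 13 in *upf1∆set2∆* cells of its own experiment. Both of these TSSCs reach into the ORF in the *RRP6* experiment's table. The mRNA-TSSC of *NAM7*, the gene of Upf1, lies wholly upstream of its ORF (chrXIII:429682-429732, minus strand) and does not check the deletion. It was not lost in the *upf1∆* strains, with 220 in wild-type, 176 without Upf1, 280 without Rrp6 and 349 without both, and in the *SET2* experiment it had 111 in wild-type, 165 in *upf1∆*, 110 in *set2∆* and 101 in *upf1∆set2∆*. The absence of Upf1 thus rests on the labels. No TSSC of the central part lay in *RRP6*, *SET2* or *NAM7*. In bulk RNA, fewer transcribing cells and less RNA per cell cannot be told apart.

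The label was checked against the RefSeq annotation of the R64 genome, the build of the tables. Of the 770 midpoints, 750 lay in a coding exon of their ORF, 13 in an intron, 6 upstream of the RefSeq start codon, and 1 on an ORF with no RefSeq coding sequence of that name. The ORF bounds were the same in both sources for 740, and with RefSeq bounds 759 were still in the central part. The 6 upstream ones were in *RPS26A*, *RPL24A*, *RPS22B* (ribosomal proteins), *BMH2* (a 14-3-3 protein, with 2 TSSCs) and *ARF2* (a small GTPase). They include some of the largest values: the *RPS26A* TSSC had 5239 in wild-type, the largest of the 770. Only the shares of the 770 that were higher in each comparison of the *RRP6* experiment were recomputed without the 20 outside coding exons. A further 37 start with 50 nt that occur more than once in the genome, among them the subtelomeric *YRF1* helicase genes and the 4 near-identical *ASP3* asparaginase genes, and the reads of such copies cannot be assigned with certainty.

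The start sites themselves carried the bases common at yeast TSSs. Of the 770, 162 were a single nucleotide wide, so 1 position is listed for their start. At 140 of these, 86.4% (95% Wilson confidence interval, CI, 80.3% to 90.9%), the base before the start was a pyrimidine and the start a purine, against 23.0% of all 2262435 positions in the central part of 4475 single-exon ORFs. An A stood 8 nt before the start at 64.8% of them, against 32.6% of all positions. Among 138 mRNA-TSSCs of 1 nt these shares were 98.6% and 76.1%. The study had filtered TSSCs for a minimum share of starts on a purine after a pyrimidine. The pyrimidine and purine shares were thus set in part by that filter and are no independent evidence on the start sites. The base 8 nt before the start was not part of the filter. A single-nucleotide TSSC without the pair would not pass the filter as described, and why some are listed was not resolved. All intervals here treat TSSCs as independent and cover counting error only, not the spread between libraries.

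3 single-nucleotide TSSCs that are described below show this pattern and a departure from it. The capital marks the start, and each run reads 5′ to 3′ on the coding strand.

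MTC5: caggggtagagaagcAtccttttaaaattg
RTT101: tacaaagacagcctcAtggaacttttcaaa
KIN4: cgtgattcgaagggcAacggccagacccaa

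The windows are chrIV:711521-711550 on the plus strand for *MTC5*, chrX:350546-350575 on the minus strand for *RTT101* and chrXV:777115-777144 on the plus strand for *KIN4*. All start at an A after a C, and the base 8 nt before the start is an A in *MTC5* and *RTT101* and a C in *KIN4*.

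The reading frame of the first ATG could be read for 738 of the 770, from the last position of the TSSC onward. It was in frame with the ORF for 207 (28.0%) and out of frame for 531 (72.0%), while over all positions of the central part of ORFs it would be in frame for 32.1%. With the ATG out of frame, the first ORF had a median of 11 codons (quartiles 5 and 22) and its stop codon lay a median of 548 nt from the annotated transcript end. With the ATG in frame, the first ORF had a median of 140.5 codons, since it is the remainder of the gene, and its stop lay a median of 107 nt from the end. Windows around the first ATG are shown for the 5 TSSCs with the largest *upf1∆* over wild-type ratio, with the ATG in capitals.

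AFR1: tgagaaatatagATGtataaagtcacaatc
ZIP1: aagaagcacaatATGaagatttggtcaaaa
GYP7: acaataccatcgATGgattaccaccaccgc
JLP1: tgagcacgcttcATGtcatccatagctcaa
SPS4: cgacagcaagaaATGgagacaactatgttt

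These are chrIV:615207-615236 (minus strand), chrIV:1034015-1034044 (plus), chrIV:35046-35075 (minus), chrXII:26172-26201 (minus) and chrXV:902349-902378 (minus). All 5 ATGs are out of frame, with first ORFs of 41, 24, 38, 18 and 13 codons. For 5 other TSSCs that are described below, the first ATG is in frame.

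YCR007C: atcacagacaatATGaatcaatatttactt
GLK1: agcgctcagggtATGcctatgatcaaggtt
HOP1: gcaacatccagtATGgaaaaagctgggaac
YGR153W: gttgaatcaagtATGgattcaagtagggaa
BDH2: ctggctgaaaaaATGggtgccagggtttac

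Their positions are chrIII:126308-126337 (minus), chrIII:51444-51473 (plus), chrIX:227361-227390 (plus), chrVII:796443-796472 (plus) and chrI:34132-34161 (plus), and 104, 294, 348, 96 and 185 codons of the gene remain after the ATG. Some first ORFs are short enough to be shown whole, from the ATG to the stop codon, both in capitals.

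DAP1: ATGatgcgtcgcgtggtcttgcatTGA
MTC5: ATGataaggaagttgacagcagtgTAA
MET3: ATGgttctcatatccTGA
SSA4: ATGtgcTGA

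They lie at chrXVI:228582-228608, chrIV:711566-711592, chrX:457357-457374 and chrV:365497-365505, all on the plus strand, and code for 8, 8, 5 and 2 amino acids.

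In wild-type cells the mid-ORF TSSCs were weak. Their median value was 4 (quartiles 1 and 15), against 132 for the mRNA-TSSCs, and 110 of the 770 (14.3%) had a value of 0. The median was 10 without Upf1, 4 without Rrp6 and 9 without both, and the number at 0 fell to 37, 102 and 13. The 8 with the largest wild-type value held 61.4% of the summed wild-type value, so sums over these TSSCs describe a few of them and are not used further.

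The largest value inside a coding exon belonged to *DAP1*, which codes for a heme-binding protein of sterol synthesis. Its TSSC, at chrXVI:228521-228562 on the plus strand, had 3993 in wild-type, 4203 without Upf1, 2544 without Rrp6 and 2987 without both. The mRNA-TSSC of *DAP1* had only 863 in wild-type, so most starts at this gene were internal. The 4 *ASP3* TSSCs had between 1062 and 1131 in wild-type and between 1241 and 1279 in *upf1∆* cells, and with 4 copies of the sequence these values cannot be divided between them. *YCR007C*, a member of the DUP240 family of membrane proteins, had 309 in wild-type, 750 without Upf1, 355 without Rrp6 and 1005 without both. Its mRNA had 22, 62, 19 and 54 in the same order. The internal TSSC, whose first ATG is in frame, and the mRNA were thus both higher in the *upf1∆* strains than in the *UPF1* strains. The difference was not particular to the internal start. The *RPL24A* TSSC, which is upstream of the RefSeq start codon, had 1069 in wild-type and between 888 and 1082 in the mutants.

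**Figure D1:**
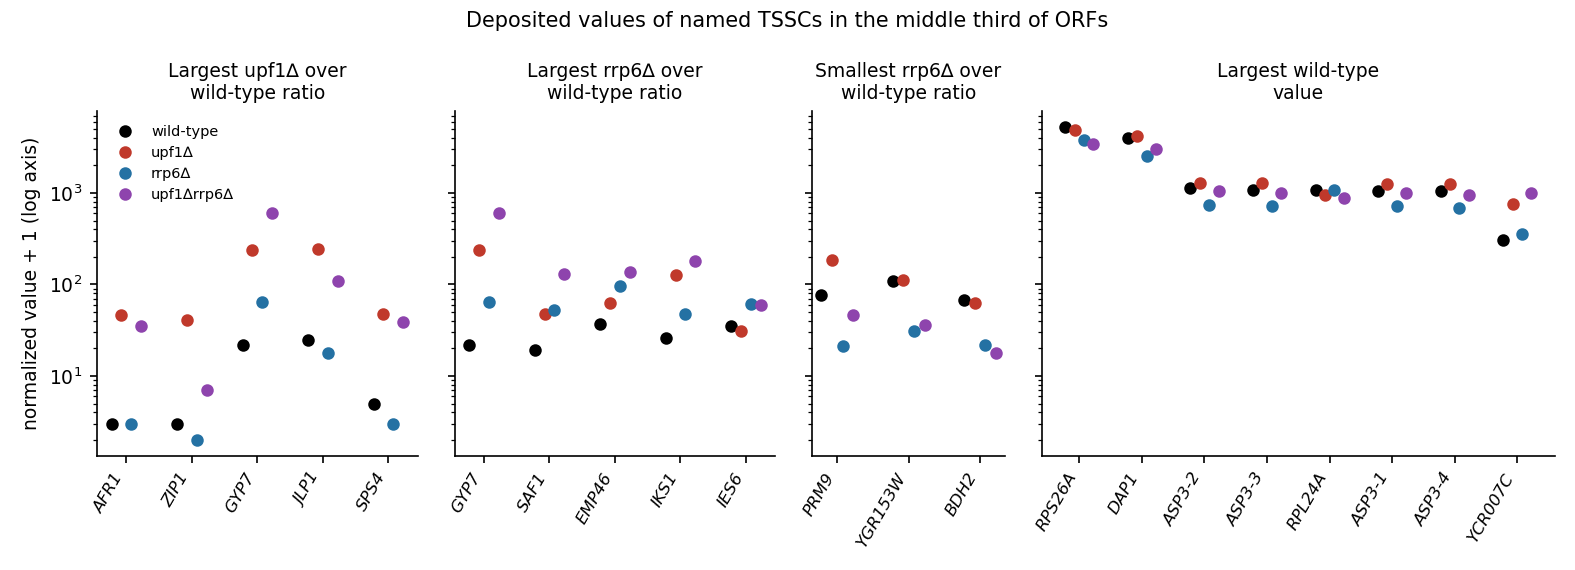
Deposited normalized value plus 1 (log axis) of named mid-ORF TSSCs in the 4 genotypes of the RRP6 experiment, 1 point per genotype, with no error bars because the libraries were pooled. For the first 5 genes the *upf1∆* and *upf1∆rrp6∆* points are above wild-type (*GYP7* 21, 238 and 607 in wild-type, *upf1∆* and *upf1∆rrp6∆*), and of the TSSCs with the largest wild-type values only *YCR007C* (309 and 1005 in wild-type and *upf1∆rrp6∆*) spans more than a 2-fold range.

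Many of the mid-ORF TSSCs were higher without Upf1, and almost none were lower. After adding 1 to both values, 333 of the 770, or 43.2% (95% CI 39.8% to 46.8%), were more than 2-fold higher in *upf1∆* than in wild-type cells, 8 were more than 2-fold lower, and the median log2 ratio was 1.00 (quartiles 0.22 and 1.58). Over all 17812 TSSCs, 31.5% were more than 2-fold higher and 0.764% lower, and over mRNA-TSSCs 13.5% were higher. A TSSC was listed where any 1 library of its experiment had enough reads, so starts that are high only in a mutant could be listed as well. Without Rrp6 the share was similar: for *upf1∆rrp6∆* over *rrp6∆*, 308 of 770 (40.0%, 95% CI 36.6% to 43.5%) were higher, against 34.8% of all TSSCs, and 3 were lower, against 0.342%. Among the 226 with a mean of at least 20 over wild-type and *upf1∆*, 110 (48.7%) were higher and 1 was lower, so the difference was not limited to low values. Among TSSCs at most 10 nt wide, *upf1∆* over wild-type was higher for 29.0% of 221 mid-ORF and 23.3% of all 3450, while *upf1∆rrp6∆* over *rrp6∆* was higher for 25.3% and 27.4%, the reverse order of that over all widths.

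The share of higher TSSCs differed with position. It was 55.1% (95% CI 51.9% to 58.3%) in the 5′ part of ORFs and 31.8% (95% CI 28.6% to 35.1%) in the last, so the central part lay between them with no overlap of the intervals. Within the central part, the share fell over 4 segments of equal length: 50.9%, 45.8%, 40.9% and 32.6%, over 224, 203, 171 and 172 TSSCs. The intervals of the outer segments, 44.4% to 57.4% and 26.0% to 39.9%, did not overlap. In the plot of the share along the ORF, the neighbouring bins outside had 56.3% just before and 45.0% just after, so the fall was not smooth at the downstream limit. The TSSCs nearest the lower limit were those in *PFK26* (4 in wild-type, 33 without Upf1, 4 without Rrp6 and 28 without both) and *YDR541C* (4, 3, 4 and 3) outside it and in *IPT1* (11, 34, 2 and 15) and *REG2* (0, 1, 0 and 0) inside it. At the upper limit they were *CBT1* (0, 4, 0 and 2) and *LEO1* (2, 3, 2 and 2) inside and *TES1* (10, 21, 8 and 7) and *AGX1* (8, 18, 14 and 17) outside.

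**Figure D2:**
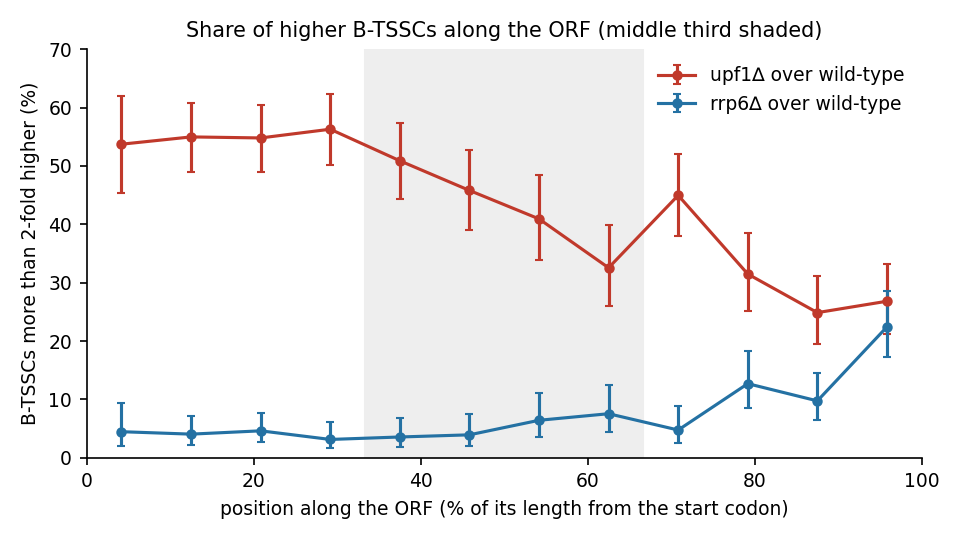
Share of B-TSSCs more than 2-fold higher than in wild-type (y axis, %) in 12 equal bins of the ORF (x axis, % of ORF length from the start codon), with 95% Wilson intervals. The *upf1∆* share falls across the shaded central part from 50.9% to 32.6%, while the *rrp6∆* share stays between 3.57% and 7.56% there.

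The frame of the first ATG also separated these TSSCs. With the first ATG out of frame, 269 of 531 (50.7%, 95% CI 46.4% to 54.9%) were more than 2-fold higher in *upf1∆* cells, with a median log2 ratio of 1.07. With the first ATG in frame, 50 of 207 (24.2%, 95% CI 18.8% to 30.4%) were higher, with a median of 0.58. The difference was 26.5 percentage points (95% CI 18.9 to 33.3). In *rrp6∆* cells the same split was seen, as the ratio of *upf1∆rrp6∆* over *rrp6∆* passed 2-fold for 48.2% of the out-of-frame and 21.7% of the in-frame TSSCs.

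Wild-type levels of both kinds were close, with medians of 4 out of frame and 5 in frame, and the difference was present at each level. Where the mean over wild-type and *upf1∆* was under 5, the shares were 38.8% out of frame and 20.2% in frame. From 5 to under 20 they were 59.3% and 23.8%, and at 20 or more they were 55.7% and 30.9%. In the 5′ part of ORFs the shares were 63.6% of 722 and 22.3% of 179, and in the 3′ part 38.0% of 469 and 20.2% of 218. The intervals of the in-frame shares overlapped between all parts of the ORF, while those of the out-of-frame shares did not.

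**Figure D3:**
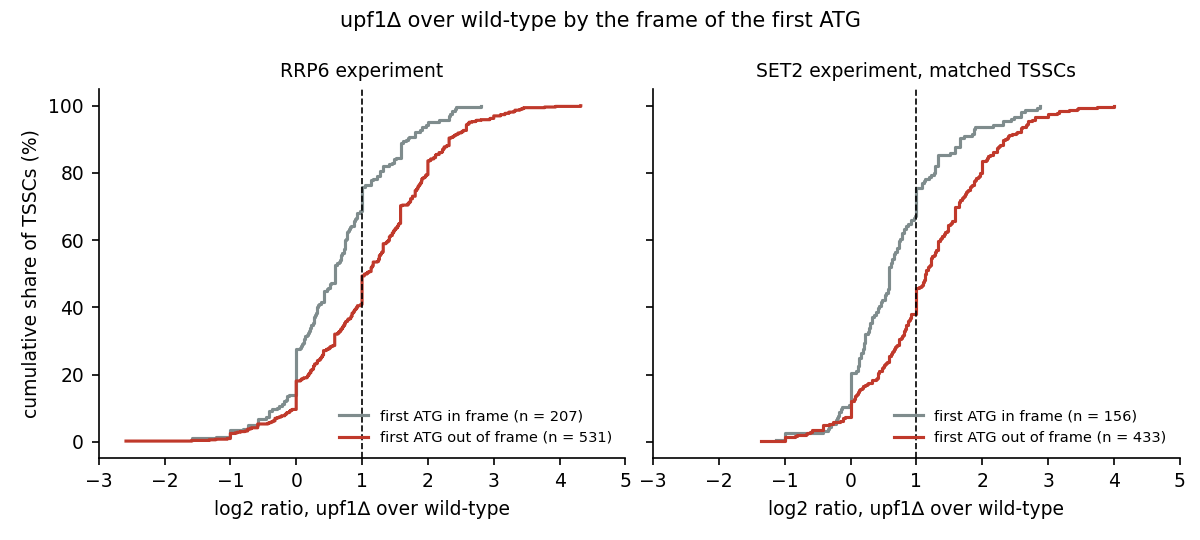
Cumulative share (y axis, %) of mid-ORF TSSCs by log2 ratio of *upf1∆* over wild-type (x axis), for TSSCs whose first ATG is in frame (grey) or out of frame (red) with the ORF, in the RRP6 experiment (left) and, for matched TSSCs, in the SET2 experiment (right). At the dashed line, a 2-fold increase, the curves are apart in both panels: 50.7% against 24.2% lie beyond it on the left and 54.3% against 24.4% on the right.

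The share also rose with the number of out-of-frame ATGs that precede the first in-frame one. It was 25.9% of 212 TSSCs with none, 42.2% of 154 with 1, 49.5% of 105 with 2, and it was 39 of 78 with 3 and 57.1% of 189 with 4 or more. Among out-of-frame TSSCs, the length of the first ORF showed no such order: 50.4% were higher with 1 to 4 codons, 40.0% with 5 to 10, 57.6% with 11 to 21 and 54.3% with 22 to 101. The distance from the stop codon to the transcript end did separate them at its low end. With 20 to 372 nt, 43 of 133 (32.3%, 95% CI 25.0% to 40.7%) were higher, and with 374 to 543, 548 to 893 and 897 to 3730 nt the shares were 54.2%, 64.1% and 52.6%. The group with the shortest distance also had the largest median wild-type value, 10 against 5, 3 and 3, and the part of level in this was not tested. For in-frame TSSCs the number of codons left made no visible difference, with 24.6%, 21.7% and 26.1% higher from the shortest to the longest part.

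The 5 largest ratios of *upf1∆* over wild-type, among TSSCs with a mean of at least 20, were in *AFR1*, *ZIP1*, *GYP7*, *JLP1* and *SPS4*, whose first ATGs are shown above. *AFR1* codes for a protein of the mating projection. Its TSSC (chrIV:615247-615304, minus strand) had 2 in wild-type, 45 without Upf1, 2 without Rrp6 and 34 without both, a log2 ratio of 3.94 for *upf1∆* over wild-type, while its mRNA had 181 in wild-type and 152 in *upf1∆*. In the *SET2* experiment it had 2, 39, 4 and 67 in wild-type, *upf1∆*, *set2∆* and *upf1∆set2∆*. In both experiments it was high in the strains without Upf1 and at 4 or less in the others.

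*GYP7* codes for a GTPase-activating protein of vacuolar traffic. Its TSSC (chrIV:35110-35273, minus strand) had 21 in wild-type, 238 without Upf1, 63 without Rrp6 and 607 without both, with log2 ratios over wild-type of 3.44 in *upf1∆* and 1.54 in *rrp6∆*. The mRNA of *GYP7* had 89 in wild-type and 101 in *upf1∆*, so without Upf1 the internal start was above the mRNA. The *JLP1* TSSC had 24, 246, 17 and 109 in the same order of genotypes. For *JLP1*, a sulfonate dioxygenase, and for *SPS4* the mRNA-TSSC was also higher, at 36 in wild-type and 155 in *upf1∆* cells for *JLP1* and at 8 and 37 for *SPS4*. *ZIP1* had no mRNA-TSSC in the table.

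Meiotic genes, which are hardly expressed in growing haploid cells, held several of these TSSCs. Of 13 listed meiotic ORFs with an mRNA-TSSC, 3 held a mid-ORF TSSC, and with ORFs that have no mRNA-TSSC there were 7 such TSSCs, of which 5 were more than 2-fold higher in *upf1∆* cells, with a median log2 ratio of 1.97. Of all ORFs with an mRNA-TSSC 12.0% held a mid-ORF TSSC, and 43.2% of the 770 and 31.5% of all TSSCs were higher in *upf1∆*. The list holds only 7 TSSCs on 6 genes. *SPS4*, a sporulation gene, had 4 in wild-type, 46 without Upf1, 2 without Rrp6 and 38 without both. The 2 TSSCs of *ZIP1*, which codes for a central element of the synaptonemal complex, had 2, 40, 1 and 6, and 2, 29, 2 and 11. *MSH4*, of meiotic crossing over, had 10, 42, 6 and 43.

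*HOP1*, an axis protein of meiotic chromosomes, behaved otherwise, with 20 in wild-type, 45 without Upf1, 4 without Rrp6 and 6 without both. It was thus low in both strains without Rrp6, and the *ZIP1* TSSC at 40 in *upf1∆* was at 6 when Rrp6 was also absent. *REC8* and *SPO11*, the others of the list with a mid-ORF TSSC, stayed at or under 18 and 2.

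A fall in *upf1∆* was rare at higher values. The smallest ratios among TSSCs with a mean of at least 20 were in *KIN4*, *HMRA1* and *RPS22B*. *KIN4*, a mitotic checkpoint kinase, had 30 in wild-type, 14 without Upf1, 23 without Rrp6 and 8 without both, a log2 ratio of −1.05, and it was the only one of the 226 more than 2-fold lower. In the *SET2* experiment it had 23 in wild-type and 11 in *upf1∆*. *HMRA1* had 32 and 23 in wild-type and *upf1∆*, and *RPS22B*, upstream of the RefSeq start codon, had 114 and 84.

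The contrast of *upf1∆* with wild-type was measured again in the *SET2* experiment, which gives the error of a ratio. Of the 770 TSSCs, 615 shared 1 nt or more, strand included, with a TSSC of that experiment, 611 of them a B-TSSC and 4 an mRNA-TSSC, and 15 shared their partner with another. The 155 without a partner were mostly weak, with a median of 2 in *upf1∆* against 14 for the matched ones. They also include the strong TSSCs of *GLK1* and *RPL24A*, with 470 and 955 in *upf1∆*, which were thus not seen again in the second experiment. Across the 615 matched TSSCs, the log2 ratios of both experiments had a Pearson's r of 0.84 and a Spearman's rho of 0.86, and their difference had an SD of 0.52. The points share a strain and a protocol and are not independent replicates. The SD was 0.74 where the mean value was under 3, 0.63 from 3 to under 10, 0.38 from 10 to under 30, and 0.24 at 30 or more. A 2-fold ratio was thus larger than the SD at each level. With 0.1 added in place of 1, however, the SD was 1.20 over all 615 and 2.04, 1.35, 0.57 and 0.25 from the lowest to the highest level, so a 2-fold ratio exceeded it only from a mean of 10 upward.

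Of the 297 matched TSSCs more than 2-fold higher in *upf1∆* at first measurement and the 282 at the second, 247 were the same, 83.2% and 87.6% of these lists. No TSSC passed 2-fold in opposite directions, but so few were lower in either experiment that this is no evidence of agreement. Over all 21707 TSSCs listed for the *SET2* experiment, 26.9% were higher in *upf1∆* and 0.769% lower, and 2 of the 615 were lower. Between both wild-type values, scaled to equal medians of mRNA-TSSCs, the *RRP6* experiment had the higher value by more than 2-fold at 17 of the 615 (2.76%) and the lower at 98 (15.9%), with a median log2 ratio of −0.29. Among 5662 mRNA-TSSCs compared in the same way, 4.54% were higher and 1.15% lower. The frame of the first ATG gave a like split in the second experiment, where 235 of 433 out-of-frame TSSCs (54.3%) and 38 of 156 in-frame ones (24.4%) were higher in *upf1∆*. In *upf1∆set2∆* against *set2∆* cells, 271 of the 615 (44.1%) were higher and 1 was lower, against 36.9% and 0.76% of all TSSCs, with 53.3% of the out-of-frame and 21.2% of the in-frame ones higher.

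**Figure D4:**
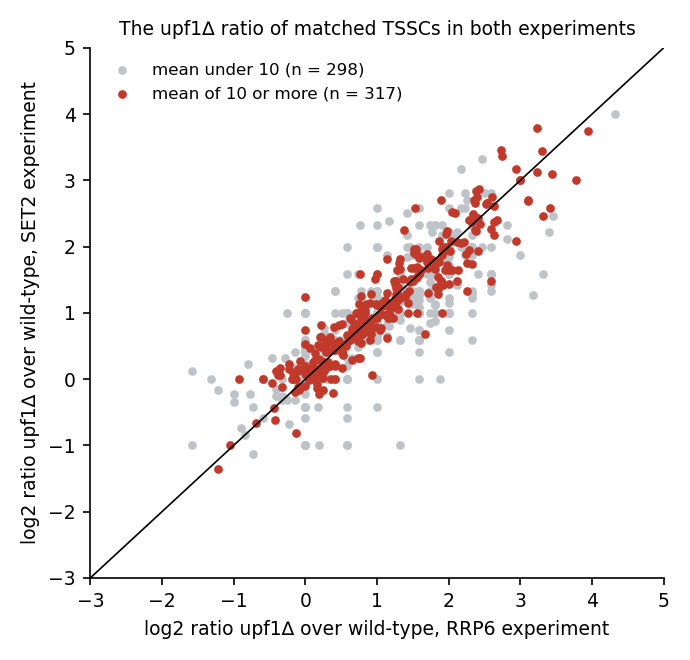
Log2 ratio of *upf1∆* over wild-type of the 615 matched mid-ORF TSSCs in the RRP6 experiment (x axis) and the SET2 experiment (y axis), 1 point per TSSC, with the line of equality. TSSCs with a mean value of 10 or more over the 4 values (red) lie closer to the line than the others (grey), and the SD of the difference over all 615 is 0.52.

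Loss of Rrp6 left most of the mid-ORF TSSCs near their wild-type value. In *rrp6∆* cells 40 of 770 (5.19%, 95% CI 3.84% to 7.00%) were more than 2-fold higher than in wild-type and 80 (10.4%) more than 2-fold lower, with a median log2 ratio of 0.00. Over all TSSCs 24.7% were higher and 3.13% lower, so for the central part the order of both directions was the reverse. *rrp6∆* was compared with wild-type in 1 experiment only. Between the wild-type values of both experiments, scaled as above, 15.9% of the 615 matched TSSCs were more than 2-fold lower in the *RRP6* experiment. With 0.1 added in place of 1, the shares higher were 10.6% of the mid-ORF TSSCs and 31.1% of all, and 16.0% and 5.49% were lower. Among the 128 with a mean of at least 20, 3 were higher and 15 (11.7%) lower, while of mRNA-TSSCs at that level 3.26% were higher and 2.34% lower. The 5′ part of ORFs had 4.04% higher and 6.91% lower, and the 3′ part 12.6% higher and 9.10% lower. Within the central part the share of higher TSSCs was 3.57%, 3.94%, 6.43% and 7.56% from its first to its last segment.

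The 3 more than 2-fold higher at this level were *GYP7*, *SAF1* and *EMP46*. *SAF1*, an F-box protein, had 18 in wild-type, 46 without Upf1, 51 without Rrp6 and 129 without both. *EMP46*, a cargo receptor of the early secretory pathway, had 36, 61, 96 and 136. The next were *IKS1*, a kinase, with 25, 126, 47 and 181, and *IES6*, a subunit of the INO80 chromatin remodeller, with 34, 30, 60 and 58. Only in *IES6* was *upf1∆* not above wild-type.

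The smallest ratios of *rrp6∆* over wild-type were in *PRM9*, *YGR153W* and *BDH2*. *PRM9*, a pheromone-regulated membrane protein, had 76 in wild-type, 182 without Upf1, 20 without Rrp6 and 45 without both, and its mRNA had 61 in wild-type and 11 in *rrp6∆*. *YGR153W* had 107, 111, 30 and 35, while its mRNA had 120 in wild-type and 64 in *rrp6∆*. *BDH2*, a putative alcohol dehydrogenase, had 67, 61, 21 and 17, with 201 and 55 for its mRNA. In all 3 the mRNA of the gene was lower in *rrp6∆* as well.

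This was not general. Of the 80 TSSCs more than 2-fold lower in *rrp6∆*, 68 had an mRNA-TSSC on the same ORF, and in 10 of these the mRNA was also more than 2-fold lower, with a median mRNA log2 ratio of −0.11. Across the 697 TSSCs with an mRNA-TSSC on their ORF, the log2 ratio of the TSSC and that of the mRNA had a Spearman's rho of 0.05 for *rrp6∆* over wild-type and 0.15 for *upf1∆* over wild-type. Both values come from the same libraries, and the points are TSSCs, not samples.

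Without both factors, 314 of the 770 (40.8%, 95% CI 37.4% to 44.3%) were more than 2-fold higher than in wild-type and 29 were lower, against 52.3% of all TSSCs higher and 1.57% lower. Relative to the median ratio of mRNA-TSSCs, 0.28 on the log2 scale in this comparison, the share was 34.9%. Against *upf1∆* alone, 62 (8.05%, 95% CI 6.33% to 10.2%) were higher in *upf1∆rrp6∆* and 100 (13.0%) lower, where 28.6% of all TSSCs were higher and 3.96% lower. The 3′ part of ORFs had 17.7% higher and the 5′ part 5.21%.

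The largest *upf1∆rrp6∆* over wild-type ratios were in *ESC8*, *DOT6*, *GYP7*, *YGR130C* and *CMK1*. *ESC8*, which codes for a protein involved in silencing, had 0 in wild-type, 19 without Upf1, 3 without Rrp6 and 67 without both at its second TSSC (chrXV:293704-293725, plus strand). *DOT6*, a regulator of ribosome biogenesis genes, had 2, 23, 4 and 82. *CMK1*, a calmodulin-dependent kinase, had 14, 90, 24 and 151. The 2 TSSCs of *YGR130C*, a component of the eisosome, had 5, 36, 15 and 63, and 1, 20, 2 and 38. In all of these *upf1∆rrp6∆* was above *upf1∆*, and *rrp6∆* stayed far below *upf1∆*.

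At the other end, *CWC21*, of the spliceosome, had 166 in wild-type, 202 without Upf1, 135 without Rrp6 and 84 without both, the smallest ratio of *upf1∆rrp6∆* over *rrp6∆* at −0.68. *HMRA1* and *RPS22B* followed with −0.56 and −0.53.

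5 ORFs held 3 mid-ORF TSSCs each, and they are named here after their values were seen. In *BNA4*, of NAD synthesis, the TSSC farthest downstream (chrII:39920-40072, plus strand) had 76 in wild-type, 439 without Upf1, 47 without Rrp6 and 260 without both, while the other two did not exceed 2. In *YOL075C*, an ABC transporter, all 3 were at 0 in wild-type and in *upf1∆*, between 1 and 3 in *rrp6∆*, and at 17, 17 and 5 in *upf1∆rrp6∆* cells. In *DNL4*, the DNA ligase of end joining, the TSSC with the largest value had 6, 7, 33 and 35 in the same order of genotypes, and the others had 1, 2, 5 and 7, and 3, 5, 10 and 16, so all were highest in the strains without Rrp6. In *CPR8*, a cyclophilin, they had 5, 20, 1 and 4, then 0, 3, 0 and 2, then 3, 11, 3 and 9, and each was highest in *upf1∆*. Only in *ESC8* did the pattern differ between TSSCs: 1, 9, 2 and 13 at the first, 0, 19, 3 and 67 at the next, and 2, 5, 11 and 26 at the last, where *rrp6∆* was above *upf1∆*.

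The ORFs that held these TSSCs spanned the range of expression. With ORFs ordered by the wild-type value of their mRNA-TSSCs and split into 5 equal groups, the central part of ORFs held 19.6 TSSCs per 100 kb in the lowest group, then 23.9, 30.8, 36.5 and 29.5. The 5′ part rose from 22.5 to 40.8 per 100 kb between the lowest and the highest group, and the 3′ part was 29.3 in the lowest and 22.2 in the highest. The share of mid-ORF TSSCs more than 2-fold higher in *upf1∆* was 48.1%, 46.2%, 45.7%, 39.1% and 27.7% from the lowest to the highest group. Wild-type values of the TSSC and of the mRNA hardly went together, with a Spearman's rho of 0.09 over 697 TSSCs.

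Relative to the mRNA of its ORF, a mid-ORF TSSC had a median of 2.50% in wild-type (quartiles 0.54% and 10.1%), 5.24% without Upf1, 2.53% without Rrp6 and 4.14% without both. It reached the mRNA value in 35 of 695 in wild-type and in 56 of 697 in *upf1∆*. The mRNAs themselves moved less, with a median log2 ratio of 0.15 in *upf1∆* over wild-type and 107 of 697 more than 2-fold higher. On the opposite strand, a TSSC lay within 250 nt upstream of 238 of the 770 (30.9%), against 27.7% for the 5′ and 29.5% for the 3′ part of ORFs.

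Lists of genes were compared with all 5231 ORFs that have an mRNA-TSSC, of which 627 (12.0%) held a mid-ORF TSSC. By list these were 7 of 137 ribosomal protein genes, 1 of 17 glycolytic genes, 1 of 29 translation factors, 2 of 33 aminoacyl-tRNA synthetases, and 2 of 26 chaperones. It was also 10 of 67 in amino acid biosynthesis, 2 of 25 for chromatin factors of transcribed genes, 1 of 13 for NMD and decapping, 2 of 17 for the nuclear exosome and TRAMP, 2 of 10 for reporters of cryptic initiation, and 0 of 12 for repeat-containing cell wall genes. ORFs of these lists differ in length, which was not adjusted for.

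The glycolytic one was *GLK1*, glucokinase, with 253 in wild-type, 470 without Upf1, 305 without Rrp6 and 490 without both. It is in frame, and 294 codons remain after its first ATG. Its mRNA had 9469 in wild-type. No TSSC of the *SET2* experiment overlapped the *GLK1* TSSC on its strand. In amino acid biosynthesis 5 of the 12 TSSCs were more than 2-fold higher in *upf1∆*, near the 43.2% of all mid-ORF TSSCs and beside 31.5% of all TSSCs. Among them was *LYS21*, a homocitrate synthase whose first 50 nt occur at 2 places in the genome, with 6, 22, 3 and 8. *OM45*, a mitochondrial outer membrane protein, had 4, 10, 7 and 10, and *YMR114C* had 4, 19, 3 and 20.

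The *SET2* experiment addressed how TSSCs at the same places differ without Set2. Of the 615 matched TSSCs, 228 (37.1%, 95% CI 33.3% to 41.0%) were more than 2-fold higher in *set2∆* than in wild-type cells and 22 were lower, with a median log2 ratio of 0.74. Among all listed TSSCs of that experiment, 27.7% were higher and 1.33% lower. Without Upf1 the share was similar: 215 (35.0%, 95% CI 31.3% to 38.8%) were higher in *upf1∆set2∆* than in *upf1∆*, against 34.9% of all TSSCs, and 28 were lower, against 2.62%. In *upf1∆set2∆* against wild-type, 404 (65.7%) were higher and 4 lower, against 56.2% and 0.696% of all. A partner needed to share only 1 nt, so a wide TSSC can be the partner of a narrow TSSC. Among the 374 pairs with the larger overlap given in the last section, 27.5% were higher in *set2∆* than in wild-type. That is no more than the 27.7% of all TSSCs. For *upf1∆set2∆* over *upf1∆* these pairs had 25.7%, below the 34.9% of all. The excess of *set2∆* over wild-type was thus not seen for these pairs.

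Position went the other way here than for *upf1∆*. Of the matched B-TSSCs of the 5′ part of ORFs, 13.7% (95% CI 11.3% to 16.6%) were more than 2-fold higher in *set2∆* than in wild-type, and of those of the 3′ part 58.3% (95% CI 54.2% to 62.2%), with the central part between them. Within the central part the share rose from 31.0% and 33.1% in its first segments to 39.0% and 47.1% in the others. The interval of the first segment was 24.6% to 38.3% and that of the last 39.1% to 55.4%. The frame of the first ATG made no visible difference to the *set2∆* over wild-type share, at 37.4% out of frame and 38.5% in frame. These shares by position and frame rest on partners that share 1 nt or more. They were not recomputed for the pairs with the larger overlap.

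**Figure D5:**
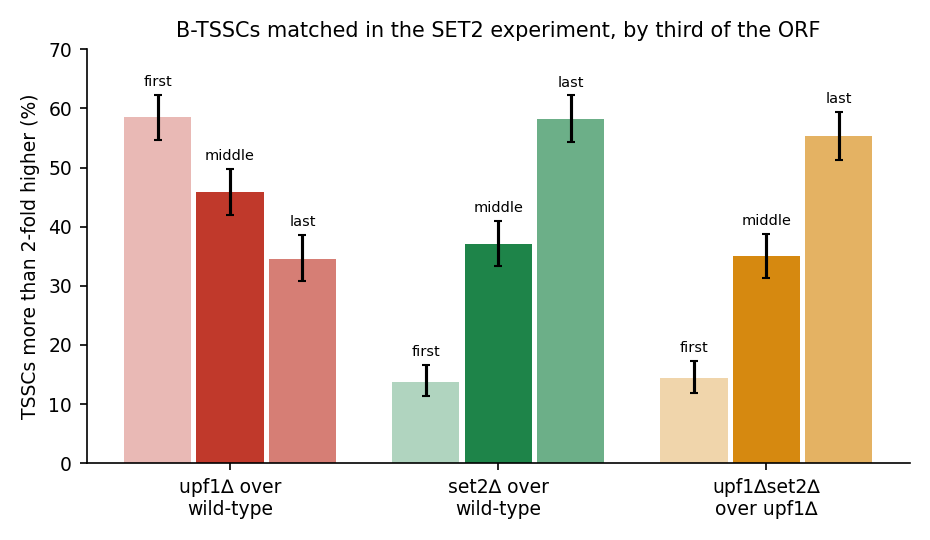
Share of B-TSSCs more than 2-fold higher (y axis, %) in 3 comparisons of the SET2 experiment, for TSSCs matched from the 5′, central and 3′ parts of ORFs, with 95% Wilson intervals. For *upf1∆* over wild-type the bars fall from the 5′ to the 3′ part, while for *set2∆* over wild-type they rise, from 13.7% through 37.1% to 58.3%.

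The largest *set2∆* over wild-type ratios, among matched TSSCs with a mean of at least 20, were in *RTT101*, *RIM15*, *MTC5*, *SSA4* and *YFR016C*. *RTT101*, a cullin, had 1 in wild-type, 1 in *upf1∆*, 81 in *set2∆* and 240 in *upf1∆set2∆* cells. *MTC5*, of the SEA complex, had 2, 5, 90 and 262 in the same order, and *YFR016C* had 1, 1, 49 and 99. *RIM15*, a kinase of quiescence, had 1, 5, 62 and 506. *SSA4*, a heat-inducible Hsp70, had 1, 13, 58 and 223. The partners of *RTT101* (chrX:350502-350566) and *MTC5* (chrIV:711522-711580) are wider than the single nucleotide listed in the *RRP6* experiment, and those of *RIM15* (chrVI:70778-70953 against chrVI:70901-70938) and *YFR016C* (chrVI:178878-178967 against chrVI:178927-178939) are wider as well, so these values also count neighbouring starts. All 5 were between 0 and 2 in the wild-type of both experiments, and in all 5 *upf1∆set2∆* was above *set2∆*.

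Of the 4 TSSCs in reporters of cryptic initiation, 0 were more than 2-fold higher in *upf1∆* than in wild-type cells of the *RRP6* experiment, against 31.5% of all TSSCs, but all 4 had between 0 and 2 in both genotypes, too few for such a difference to show. *FLO8*, a transcription factor gene widely used to score internal initiation, had 6 in wild-type, 5 in *upf1∆*, 127 in *set2∆* and 223 in *upf1∆set2∆* cells at its partner in the *SET2* experiment. That partner (chrV:376342-376623) is far wider than the TSSC of the *RRP6* experiment (chrV:376573-376580, with 2, 2, 3 and 6), so these values are of unlike regions. *DDC1*, a checkpoint clamp subunit, had 2, 3, 42 and 85. The 2 TSSCs of *SMC3* had 0, 2, 2 and 24, and 0, 3, 3 and 25, so in *set2∆* alone they stayed low. *MET3*, ATP sulfurylase, had 33, 59, 201 and 269, while in the *RRP6* experiment it had 44, 61, 22 and 34. Of the meiotic genes, *SPS4* had 3, 34, 2 and 22, *MSH4* 6, 31, 3 and 20, and *HOP1* 19, 38, 19 and 37, with *set2∆* at or below wild-type in each. The 2 TSSCs of *ZIP1* went the other way, with 2, 23, 5 and 29, and 5, 32, 9 and 67, so *set2∆* was above wild-type in both.

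The *SET2* table also held many mid-ORF starts that were not partners of the 770. It listed 2633 B-TSSCs in the central part of ORFs, of which 2052 were not the matched partner of a TSSC of the 770. Whether these overlap other TSSCs of the *RRP6* experiment was not checked. These 2052 had a median of 0 in wild-type, 0 in *upf1∆*, 3 in *set2∆* and 8 in *upf1∆set2∆* cells, and 56.5% were more than 2-fold higher in *set2∆* than in wild-type, against 11.5% in *upf1∆*. The clusters of this table were called with the *set2∆* libraries included, so starts that are high there had more chance to be listed. The share for the 770 comes only from TSSCs that overlap a TSSC called without any *set2∆* library.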

How the data were processed

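The 2 deposited tables, 1 per experiment, list TSSCs with their position, category and ORF. Their score values are whole numbers that the authors normalized with DESeq2, after alignment (Bowtie2, R64, per the labels) and removal of duplicate reads, and pooled into 1 value per genotype. The size factors came from reads just upstream of ORF start codons. The authors had also filtered the TSSCs by their reads with against without TAP, and by the share of starts on a purine after a pyrimidine. No source says how the 3 libraries were combined, and a mean was assumed. The tables also hold the authors' log2 fold changes and p-values, which were not used. The 16 libraries with or without TAP and by RNAseq were not analysed here. The fit in edgeR foreseen for values per library was not possible.

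Ratios were taken as log2((a + 1)/(b + 1)), and more than 2-fold counted as higher or lower. Shares have 95% Wilson intervals, and the difference of 2 shares a Newcombe interval. The depth of single libraries does not enter the tables, so precision was read from the repeated *upf1∆* comparison. First ATGs, ORFs and sequences were read from the RefSeq R64 reference with Python 3.11.15, NumPy 2.4.6, pandas 2.3.3 and SciPy 1.17.1. Of the 770 ORF names, 769 had a RefSeq symbol. The functions were tested on simulated data.

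The central part of ORFs and the gene lists were chosen with earlier results of these data known. Named TSSCs were, in each of 4 comparisons, the 5 with the largest and 3 with the smallest ratio at a mean of at least 20, the 8 with the largest wild-type and 5 with the largest *upf1∆rrp6∆* value, those of listed genes with a value of at least 20 in any genotype, those nearest the limits of f, and the 5 with the largest *set2∆* over wild-type ratio.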

Additional observations from a re-analysis of the deposited data

How the results depend on the processing

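No paired analysis was possible because the deposited values pool the 3 libraries of a genotype. For the same reason no replicate could be left out. 44 planned and 18 added recalculations were made, the latter chosen after seeing the data, and 22 and 18 stayed within the 95% interval of the main value. The share higher in *upf1∆* over wild-type became 51.2% with a pseudocount of 0.1, 48.7% at a mean of at least 10, and 29.0% for the 221 TSSCs at most 10 nt wide. For *rrp6∆* over wild-type these were 10.6%, 3.73% and 3.62%. For *upf1∆rrp6∆* over wild-type the share became 49.2% with a pseudocount of 0.1, 34.9% relative to mRNA-TSSCs and 29.9% for narrow TSSCs. For *upf1∆rrp6∆* over *rrp6∆* it became 51.2%, 47.7% at a mean of at least 10, 36.4% relative to mRNA-TSSCs and 25.3% for narrow TSSCs. For *upf1∆rrp6∆* over *upf1∆* it became 13.0% with a pseudocount of 0.1 and 5.60% at a mean of at least 10. The share of matched TSSCs higher in *set2∆* over wild-type became 44.2% with a pseudocount of 0.1, 44.3% at a mean of at least 10, and 27.5% for the 374 pairs that overlap by at least 50% of both TSSCs. For *upf1∆set2∆* over *upf1∆*, the last gave 25.7%. The SD of the difference between both experiments became 1.20, 0.33 and 0.42 in these settings. The difference by frame of the first ATG stayed between 22.9 and 30.7 percentage points in every recalculation. Leaving out TSSCs outside coding exons, outside the central part by RefSeq bounds, or with copied sequence moved no share of the *RRP6* experiment out of its interval. The same settings over all TSSCs, and the SD by level, were added after seeing the data. The cause of these shifts was not tested.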
